A study of Homo sapiens with 20 samples.

Results

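DND41 and HPB-ALL are cell lines grown from human leukaemias of immature T cells (T-ALL, for T cell acute lymphoblastic leukaemia), and their transcript levels were set against each other here on 8 of the 20 Affymetrix arrays of a study of 5 such lines. The arrays were chosen by the cell line in their titles and characteristics, 4 of DND41 and 4 of HPB-ALL, and no measured value entered the choice. The study asked how the Notch and HES1 pathway and NF-kB activity are linked in T-ALL. Each line had been treated for 16 h with the NEMO-binding domain (NBD) peptide, which keeps the kinases of the IkB kinase complex from binding NEMO, their regulatory partner, or with a control peptide. The groups were DND41 with NBD, DND41 with the control peptide, HPB-ALL with NBD and HPB-ALL with the control peptide, with 2 arrays each. The labels give no genotype, passage or subclone for either line, and every cell of both lines had received a peptide. Their dose is 100 µM in the descriptions and 100 mM in the source names, so no statement below uses it. Each line comes from a single leukaemia, and nothing in the labels ties the 2 arrays of a group to cultures of their own, so every p-value below covers only array-to-array spread, possibly technical.

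T cell precursors pass through ordered stages in the thymus. The earliest cells carry progenitor genes such as CD34 and LYL1 and no co-receptor. Notch signalling then commits them to the T lineage, the RAG1 and RAG2 recombinase rearranges the T cell receptor genes, and cortical thymocytes switch on the CD1 lipid-presenting molecules together with the co-receptors CD4 and CD8. Mature thymocytes lose CD1 and the recombinase and gain CD69, CCR7 and IL7R. T-ALL lines are arrested along this path, commonly with activated Notch and with a transcription factor of the TLX, TAL, LMO or HOXA families switched on by rearrangement.

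Levels are given as log2 of the deposited intensity, and differences as DND41 minus HPB-ALL on that scale, averaged over both peptides with the peptide as a term of the fit (limma, Benjamini-Hochberg adjustment over all genes tested). The median deposited value of the 8 arrays, a log2 level of 4.94, served as a floor, and the 12405 of 19741 genes that reached it on at least 4 arrays were tested. The table has no detection calls, so a difference from a level below the floor is not a measured ratio, and 492 of the genes tested lay below it on all arrays of one line. Such a gene entered the test through the line in which it was high. Across genes, arrays of the same line and peptide correlated at 0.996 to 0.998, arrays of the same line with the other peptide at 0.993 to 0.996 and arrays of different lines at 0.881 to 0.886. On the actin controls, the 3′ probe set exceeded the 5′ one on the log2 scale by 1.34 ± 0.10 in DND41 and 1.33 ± 0.08 in HPB-ALL (SD, n = 4 each; exact two-sided permutation p = 0.971). On those of GAPDH it did so by 0.35 ± 0.03 in DND41 and 0.29 ± 0.004 in HPB-ALL (exact two-sided permutation p = 0.0286, the smallest that 70 assignments allow), and its part in the line differences was not tested.

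The lines differed at most genes tested. In DND41, 3949 genes (31.8% of those tested) were called higher and 3914 (31.6%) lower than in HPB-ALL, 63.4% in either direction. At 2-fold or more, 823 genes (6.63%) were higher and 792 (6.38%) lower, 13.0% together, and 141 and 205 of these were past 8-fold. The 4 arrays of one line lay wholly above the 4 of the other for 58.0% of the genes tested, which is the background for every such statement below. The replicate spread was small beside these differences, with a median residual SD of 0.08.

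Among the 12 genes with the largest difference in favour of DND41 were a cold-shock domain protein, a pair of regulators of receptor signalling and a mismatch repair gene. YBX3, which encodes a cold-shock domain protein that binds DNA and RNA, had 11.66 and 11.66 with NBD and 11.84 and 11.84 with the control peptide in DND41, against 3.61 and 3.34 with NBD and 3.02 and 3.26 with the control peptide in HPB-ALL. All DND41 arrays were far above all HPB-ALL arrays, and the difference was 8.44 ± 0.12 (SE, adjusted p = 2.95e-10). A second probe set of YBX3 gave 5.16 and another 0.01, so the size rests on the probe set. ANXA1, the phospholipid-binding protein annexin A1, averaged 12.15 ± 0.12 in DND41 and 4.13 ± 0.21 in HPB-ALL (SD, n = 4 each), a difference of 8.02. Another probe set of ANXA1 gave 2.18. SAMSN1, an adaptor that restrains lymphocyte activation, differed by 7.76 and RGS1, which turns off G protein signalling from chemokine receptors, by 7.61. MSH6, a mismatch repair gene, had 10.99 and 11.01 with NBD and 10.94 and 10.88 with the control peptide in DND41, against 3.35 and 3.41 with NBD and 3.41 and 3.28 with the control peptide in HPB-ALL. Its difference was 7.59 ± 0.05 (SE), a second probe set gave 5.12, and CEM, a further T-ALL line of the series whose values share the same format, averaged 10.76. MSH6 was thus near the CEM level in DND41 and below the floor on every HPB-ALL array. The rest of these 12 were TRDV3 (7.19), GIMAP6 (7.10), the oxygen sensor EGLN1 (6.82), the E2F partner TFDP1 (6.73), the corepressor TLE4 (6.71), BCL2L11 (6.66) and the secretory-pathway factor XBP1 (6.64), and each was below the floor on all 4 HPB-ALL arrays.

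The 12 genes with the largest difference in favour of HPB-ALL were below the floor on all 4 DND41 arrays. OAT, the mitochondrial ornithine aminotransferase, had 4.23 and 4.15 with NBD and 4.26 and 4.28 with the control peptide in DND41, against 12.75 and 12.80 with NBD and 12.70 and 12.62 with the control peptide in HPB-ALL. Its difference of -8.49 ± 0.06 (SE, adjusted p = 1.31e-11) was the largest in absolute size among the genes tested, and CEM averaged 4.0, so of these 3 lines HPB-ALL alone had OAT above the floor. MARCKS, a membrane protein that binds actin and calmodulin, averaged 3.57 ± 0.22 in DND41 and 11.84 ± 0.09 in HPB-ALL (SD, n = 4 each). ITM2A, a membrane protein of thymocytes, averaged 3.91 ± 0.46 in DND41 and 11.57 ± 0.11 in HPB-ALL. GTSF1 differed by -7.98, GGH (gamma-glutamyl hydrolase, which removes glutamates from folates) by -7.48, FNIP2 by -7.36, SEPTIN11 by -7.29, OGFRL1 by -7.22 and the receptor-regulated SMAD5 by -7.17. DSG2 (desmoglein 2, a desmosomal cadherin) followed at -7.00, TMEM64 at -6.99 and DAPK1 (death-associated protein kinase 1) at -6.80. Other probe sets gave -1.29 to -6.84 for FNIP2, -2.07 and -1.72 for TMEM64, -3.43 for SEPTIN11, and -3.44 and -3.31 for OGFRL1. They gave -3.64 to -6.41 for SMAD5, -2.53 to -7.05 for MARCKS, -4.28 for DSG2 and -8.33 for ITM2A. The sizes thus rest on the probe set.

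**Figure D1:**
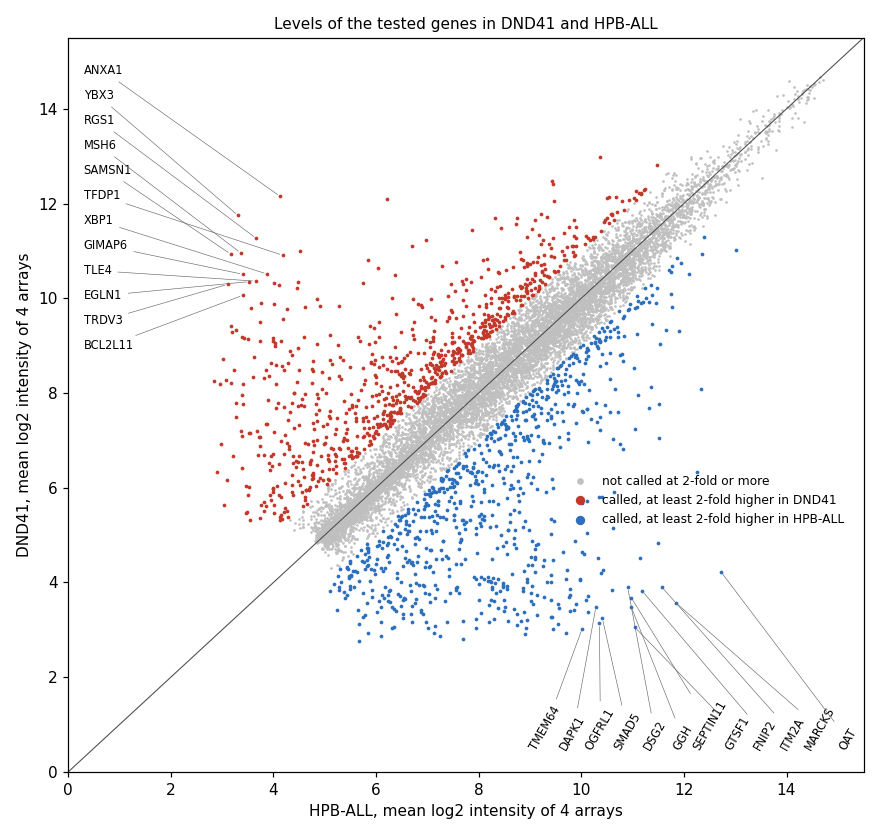
Mean log2 intensity of 4 DND41 arrays (vertical axis) against that of 4 HPB-ALL arrays (horizontal axis), 1 point per gene tested. Red points are the 823 genes called at least 2-fold higher in DND41, blue points the 792 called at least 2-fold lower, grey points the rest, and the 12 largest in each direction are named. The named genes lie near 10 to 12 in one line and near 3 to 4 in the other.

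Markers that define T cells were present in both lines, with exceptions at CD2 and CD5. Of 10 such markers measured, 9 were above the floor on some array of each line and CD2 was below it on all DND41 arrays. The mean level of the 10 per array ran from 9.08 to 9.53 in DND41 and from 9.42 to 9.64 in HPB-ALL. CD2, an adhesion receptor of nearly all T cells, had 4.33 and 4.13 with NBD and 4.06 and 4.22 with the control peptide in DND41, against 8.55 and 8.49 with NBD and 8.82 and 8.74 with the control peptide in HPB-ALL. DND41 thus lacked a level above the floor for CD2 on every array, and the difference was -4.46 ± 0.09 (SE, adjusted p = 1.9e-09). CD7, an early T lineage surface marker, went the other way, with a mean of 8.34 ± 0.46 in DND41 and 6.0 ± 0.06 in HPB-ALL (SD, n = 4 each), a difference of 2.34. CD5, which dampens receptor signalling, had 6.25 and 4.68 with NBD and 6.35 and 4.37 with the control peptide in DND41, against 8.12 and 8.10 with NBD and 8.07 and 8.16 with the control peptide in HPB-ALL. The DND41 values split by replicate number with both peptides and all lay below HPB-ALL. CD5 differed by -2.70 ± 0.45 (SE, adjusted p = 0.000773) and its other probe set by -0.62.

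Early progenitor genes were mostly below the floor. Of 19 early progenitor genes measured, 11 were below the floor on all arrays of both lines, among them KIT, FLT3, SPI1, MEF2C and LMO2. CD34, the stem cell sialomucin, had 5.08 and 4.90 with NBD and 4.86 and 4.57 with the control peptide in DND41, against 4.85 and 4.86 with NBD and 4.55 and 5.02 with the control peptide in HPB-ALL. These values overlapped around the floor, and CD34 did not pass the filter. Of the 6 members tested, the hyaluronan receptor CD44 was higher in DND41 (11.06 ± 0.19 in DND41 and 9.40 ± 0.10 in HPB-ALL, SD, n = 4 each). IGFBP7 was lower by 0.94, and another of its probe sets gave -2.41.

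Cortical thymocyte genes were called in both directions. Of 17 members, 1 was below the floor on all DND41 arrays and 1 on all HPB-ALL arrays. All 17 measured members passed the filter, and 8 were called higher and 8 lower in DND41 (94.1%, against 63.4% of all genes). At 2-fold or more, 6 were higher and 5 lower (64.7% of those tested, against 13.0% of all genes). CD38, an ectoenzyme of immature lymphocytes, had 11.34 and 11.33 with NBD and 11.56 and 11.50 with the control peptide in DND41, against 7.54 and 7.62 with NBD and 8.17 and 8.16 with the control peptide in HPB-ALL. Every DND41 array was above every HPB-ALL array, with a difference of 3.56 ± 0.08 (SE, adjusted p = 4.42e-09). ARPP21, a thymocyte RNA-binding protein gene, averaged 10.37 ± 0.29 in DND41 and 7.67 ± 0.43 in HPB-ALL (SD, n = 4 each). Of the CD1 family, CD1A had 9.82 and 9.81 with NBD and 9.92 and 9.87 with the control peptide in DND41, against 6.77 and 6.71 with NBD and 7.04 and 6.96 with the control peptide in HPB-ALL. CD1A differed by 2.98 ± 0.05 (SE, adjusted p = 1.09e-09) and CD1D, which presents lipids to innate-like T cells, by 2.97. The other 3 members, added after their values were seen, did not follow as a block: CD1B was higher in DND41 by 1.44 and CD1E by 0.57, and CD1C was lower by 1.66.

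Both co-receptors were low in DND41. CD4 had 6.08 and 5.85 with NBD and 6.22 and 5.74 with the control peptide in DND41, against 9.02 and 9.07 with NBD and 9.18 and 9.31 with the control peptide in HPB-ALL. CD8A had 3.70 and 3.45 with NBD and 3.36 and 3.33 with the control peptide in DND41, against 9.47 and 9.59 with NBD and 9.62 and 9.58 with the control peptide in HPB-ALL. CD4 was thus above the floor in DND41 at a lower level than in HPB-ALL (difference -3.17 ± 0.11, SE, adjusted p = 5.12e-08), whereas CD8A was below it on all DND41 arrays (difference -6.10 ± 0.08, SE, adjusted p = 2.17e-10). CD8B, whose product pairs with that of CD8A, averaged 5.17 ± 0.28 in DND41 and 7.57 ± 0.41 in HPB-ALL (SD, n = 4 each). Co-receptor levels on the CEM arrays lay between the lines for CD4 and CD8A, with means of 7.07 and 6.75. AQP3, a water and glycerol channel, was also lower in DND41, by 2.31.

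Late thymocyte genes split in the same manner. Of 18 measured, 14 passed the filter, and 6 were called higher and 6 lower in DND41 (85.7%, against 63.4% of all genes). At 2-fold or more, 4 were higher and 5 lower (64.3% of those tested, against 13.0% of all genes). CD69, which holds thymocytes in the tissue by opposing S1PR1, had 8.28 and 8.35 with NBD and 8.67 and 8.64 with the control peptide in DND41, against 3.58 and 3.74 with NBD and 4.04 and 4.10 with the control peptide in HPB-ALL. ICOS, a co-stimulatory receptor, averaged 10.01 ± 0.17 in DND41 and 6.31 ± 0.18 in HPB-ALL (SD, n = 4 each). IL7R, the receptor chain for interleukin 7 and a Notch target, had 11.34 and 11.35 with NBD and 11.20 and 11.26 with the control peptide in DND41, against 8.78 and 8.80 with NBD and 9.13 and 9.05 with the control peptide in HPB-ALL. These genes were above HPB-ALL on every DND41 array, by 4.62 for CD69, 3.70 for ICOS and 2.34 for IL7R. The co-stimulatory receptor CD28 averaged 7.02 ± 0.24 in DND41 and 9.75 ± 0.25 in HPB-ALL, and the lymph node homing receptor CCR7 averaged 5.40 ± 0.21 in DND41 and 7.10 ± 0.11 in HPB-ALL. CD6 was lower in DND41 by 1.74 and KLF2, a factor of quiescent T cells that drives S1PR1, by 1.38, though the other probe set of KLF2 was not called (-0.15). S1PR1 itself was below the floor in both lines.

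**Figure D2:**
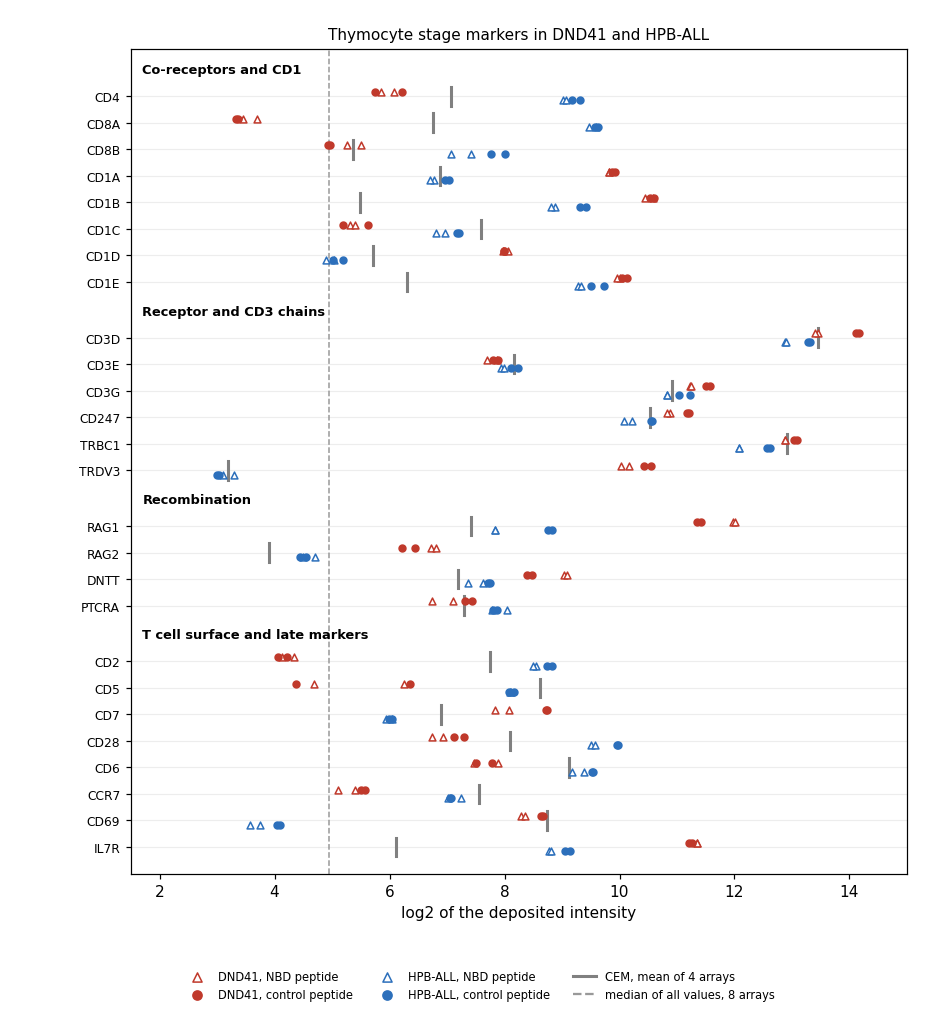
Log2 intensity of thymocyte stage genes on each of the 8 arrays. Red marks are DND41 and blue marks HPB-ALL, triangles NBD and circles the control peptide, grey bars the mean of 4 CEM arrays, and the dashed line the floor at 4.94.  CD8A and CD2 are below the floor in DND41, CD69 and TRDV3 in HPB-ALL, and most pairs of lines separate fully.

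The CD3 and receptor chains were called in both directions. CD3D had 13.46 and 13.40 with NBD and 14.16 and 14.12 with the control peptide in DND41, against 12.88 and 12.89 with NBD and 13.32 and 13.27 with the control peptide in HPB-ALL. It was higher in DND41 by 0.69 ± 0.07 (SE, adjusted p = 2.97e-05), with CD247, the zeta chain, higher by 0.66, though its other probe set was not called (0.07). TRBC1, the receptor beta constant region, was higher by 0.64 on the probe set read, and by 1.32 and 2.66 on its 2 further probe sets, so the size rests on the probe set. CD3E was lower by 0.25, a call lost on the NBD arrays alone (adjusted p = 0.137). TRBC1 has a near-identical copy, TRBC2, and probes may not tell them apart. Of the 7 chains measured, 5 were called higher and 2 lower (100.0%, against 63.4% of all genes). On the probe sets read TRAT1, a receptor-associated adaptor, alone passed 2-fold (1.54), 14.3% of the list, near the 13.0% of all genes. TRDV3, a variable segment of the receptor delta locus and not one of this list, had 10.16 and 10.03 with NBD and 10.55 and 10.43 with the control peptide in DND41, against 3.10 and 3.30 with NBD and 3.04 and 2.99 with the control peptide in HPB-ALL. TRDV3 was high on the DND41 arrays and below the floor on those of HPB-ALL and CEM, where it averaged 3.19. TARP, read from the receptor gamma locus, averaged 7.56 ± 0.19 in DND41 and 7.99 ± 0.22 in HPB-ALL (SD, n = 4 each), a call lost with the mean of its probe sets (-0.08). The alpha and delta constant regions were not analysed here.

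The recombinase was higher in DND41, while the end-joining genes that seal its breaks differed by less than 2-fold. RAG1 had 11.97 and 12.01 with NBD and 11.41 and 11.35 with the control peptide in DND41, against 7.84 and 7.84 with NBD and 8.82 and 8.75 with the control peptide in HPB-ALL. DND41 was above HPB-ALL with either peptide, and the difference was 3.37 ± 0.28 (SE, adjusted p = 1.01e-05), a 10.4-fold ratio. RAG2 averaged 6.55 ± 0.27 in DND41 and 4.55 ± 0.12, below the floor, in HPB-ALL (SD, n = 4 each). DNTT, the terminal transferase that adds untemplated bases to receptor junctions, averaged 8.75 ± 0.36 in DND41 and 7.62 ± 0.17 in HPB-ALL, a difference of 1.13. Among the end-joining genes, POLL was higher in DND41 by 0.48, and PRKDC, XRCC6, XRCC5 and POLM were lower by 0.43, 0.41, 0.29 and 0.22, though the mean of all probe sets of XRCC5 differed by 0.003 and the other probe set of XRCC6 was not called (-0.08). CEM had the lowest mean of the 3 lines for RAG1 (7.42), RAG2 (3.90) and DNTT (7.19). PTCRA, the surrogate alpha chain that tests the beta chain, was lower in DND41 by 0.72 ± 0.13 (SE, adjusted p = 0.0014).

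Proximal signalling genes downstream of the receptor were called in both directions, 12 higher and 7 lower in DND41 of 25 tested (76.0%, against 63.4% of all genes), with 7 and 4 at 2-fold or more (44.0%, against 13.0%). PTPN6, the SHP-1 phosphatase that opposes receptor signalling, had 5.85 and 5.79 with NBD and 6.09 and 5.66 with the control peptide in DND41, against 8.51 and 8.58 with NBD and 8.95 and 9.04 with the control peptide in HPB-ALL. All DND41 arrays were below all HPB-ALL arrays, by 2.92 ± 0.11 (SE, adjusted p = 1.03e-07) on average. RASGRP1, which activates RAS after receptor engagement, averaged 8.18 ± 0.43 in DND41 and 10.06 ± 0.06 in HPB-ALL (SD, n = 4 each). The membrane scaffold LAT averaged 7.09 ± 0.35 in DND41 and 8.93 ± 0.03 in HPB-ALL. UBASH3A, a suppressor of receptor signalling, was higher in DND41 by 2.32 and below the floor in HPB-ALL. The adaptors SLA2 and SLA, which promote receptor turnover, were higher by 1.94 and 1.75, though the other probe set of SLA2 was not called (0.09). LCK, the kinase that starts the cascade, was not called (difference -0.14, adjusted p = 0.0742) and is named although outside the rule.

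Of the transcription factors that define genetic classes of T-ALL, MEIS2, PBX3 and MYB differed by 2-fold or more between the lines. Of 23 such factors measured, 11 passed the filter, and 3 were called higher and 3 lower in DND41 (54.5%, against 63.4% of all genes). At 2-fold or more, 1 was higher and 2 lower (27.3%, against 13.0%). TLX3, a homeobox gene switched on by rearrangement in a class of T-ALL, had 5.72 and 5.42 with NBD and 5.53 and 5.44 with the control peptide in DND41, against 5.53 and 5.95 with NBD and 5.55 and 6.23 with the control peptide in HPB-ALL. The TLX3 values of the lines overlapped, all were above the floor, and the 4 CEM arrays averaged 3.83. The difference between DND41 and HPB-ALL was -0.29 ± 0.16 (SE, adjusted p = 0.163), which does not show that the levels are equal. TLX1, LMO2 and MEF2C were below the floor on all arrays of both lines and LMO1 on all of HPB-ALL. NKX2-5 averaged 6.39 ± 0.13 in DND41 and 6.51 ± 0.16 in HPB-ALL, and TAL1 6.0 ± 0.11 in DND41 and 6.09 ± 0.17 in HPB-ALL (SD, n = 4 each). Neither was called, and both had higher means in CEM, 8.64 for NKX2-5 and 7.73 for TAL1. Of 11 HOXA genes listed, 1 was measured by a probe set of its own, HOXA2, at 2.92 in DND41 and 2.98 in HPB-ALL, below the floor on all 8 arrays, and HOXA9 was not analysed here.

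MEIS2, a homeobox partner of HOX and PBX proteins, was the oncogenic factor with the widest gap. It had 3.93 and 4.64 with NBD and 4.22 and 4.22 with the control peptide in DND41, against 9.80 and 9.65 with NBD and 9.84 and 9.61 with the control peptide in HPB-ALL. HPB-ALL was high on every array and DND41 below the floor on every array, with a difference of -5.47 ± 0.14 (SE, adjusted p = 8.95e-09). PBX3, a further partner of HOX proteins, averaged 8.65 ± 0.07 in DND41 and 9.65 ± 0.04 in HPB-ALL (SD, n = 4 each). MYB, a factor of immature blood cells, had 12.33 and 12.36 with NBD and 11.91 and 11.97 with the control peptide in DND41, against 10.29 and 10.23 with NBD and 10.81 and 10.80 with the control peptide in HPB-ALL. MYB was higher in DND41 by 1.61 ± 0.17 (SE, adjusted p = 5.52e-05), which is 3.05-fold. MYC, a direct Notch target in T-ALL, had 8.52 and 8.71 with NBD and 9.65 and 9.65 with the control peptide in DND41, against 8.41 and 8.33 with NBD and 8.57 and 8.64 with the control peptide in HPB-ALL. For MYC, the DND41 arrays with NBD came close to those of HPB-ALL. They lay above the HPB-ALL arrays with NBD and overlapped those with the control peptide. The MYC difference averaged over both peptides was 0.65 ± 0.15 (SE, adjusted p = 0.00529). On the NBD arrays alone MYC was not called (0.25, adjusted p = 0.071). LYL1 was higher by 0.22 and TLX2 lower by 0.19, and each call was lost when 1 of 6 of the 8 arrays was left out, with adjusted p up to 0.102 for LYL1 and 0.131 for TLX2.

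**Figure D3:**
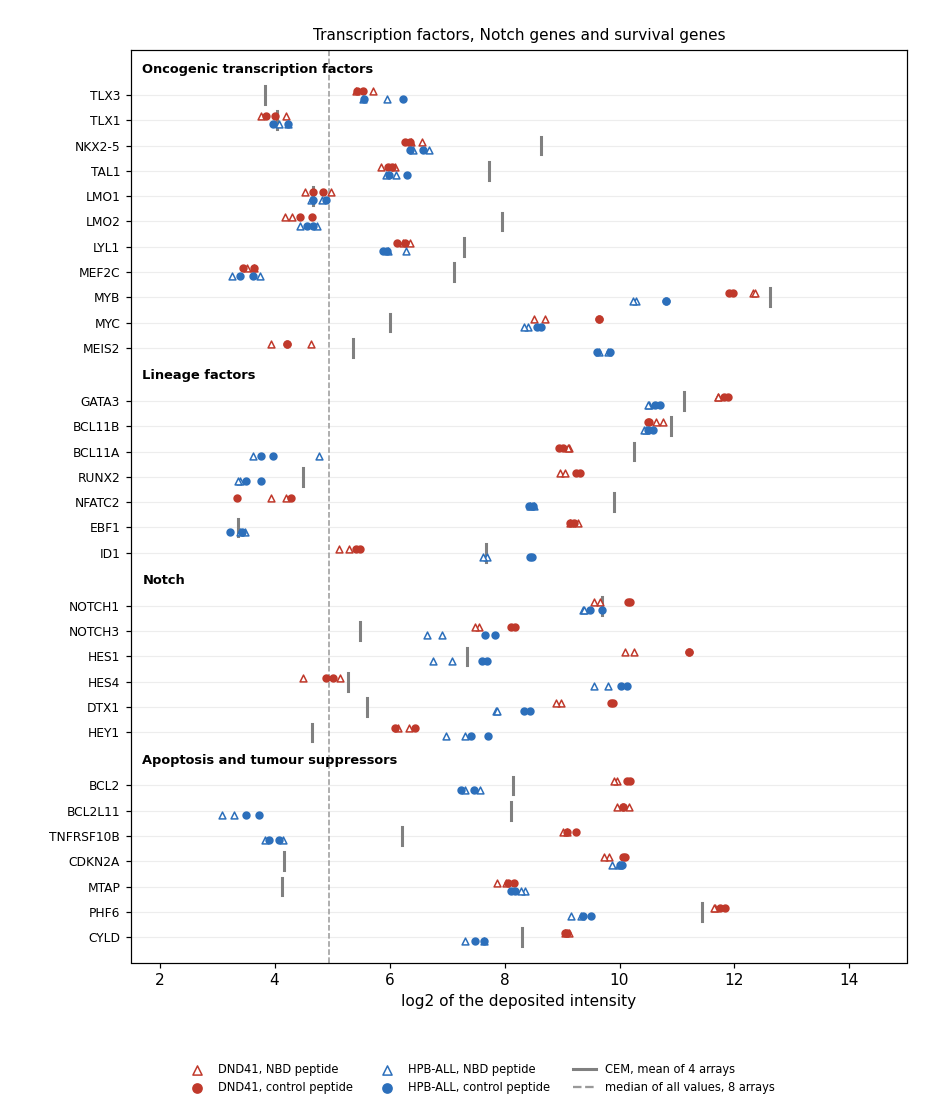
Log2 intensity of transcription factor, Notch, survival and suppressor genes on each of the 8 arrays. Red marks are DND41 and blue marks HPB-ALL, triangles NBD and circles the control peptide, grey bars the mean of 4 CEM arrays, and the dashed line the floor at 4.94. TLX3, NKX2-5, TAL1 and CDKN2A overlap between the lines, while MEIS2, RUNX2, EBF1, HES4 and BCL2L11 are separated by more than 4 log2 units.

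Of 34 lineage transcription factors tested, 18 were called higher and 6 lower in DND41 (70.6% together, against 63.4% of all genes, of which 31.8% were higher and 31.6% lower). At 2-fold or more, 8 were higher and 4 lower (35.3%, against 13.0%). Of the 34, 5 passed the filter only through the line in which they were high, as did 3.97% of all genes tested. RUNX2, a RUNX factor better known from bone, had 8.97 and 9.05 with NBD and 9.32 and 9.25 with the control peptide in DND41, against 3.39 and 3.37 with NBD and 3.50 and 3.77 with the control peptide in HPB-ALL. It was below the floor on every HPB-ALL array, with a difference of 5.64 ± 0.06 (SE, adjusted p = 9.9e-11), while a second probe set of RUNX2 was not called (-0.12). BCL11A, a repressor of progenitors and B cells, averaged 9.05 ± 0.08 in DND41 and 4.03 ± 0.52 in HPB-ALL (SD, n = 4 each), and 3 further probe sets were called the same way. BACH2, a repressor of effector differentiation, was higher in DND41 by 2.45, FOXP1, a factor of naive lymphocytes, by 1.72, and GATA3, the factor of T lineage commitment, by 1.20. BCL11B, which commits cells to the T lineage, had 10.64 and 10.76 with NBD and 10.51 and 10.49 with the control peptide in DND41, against 10.46 and 10.42 with NBD and 10.50 and 10.58 with the control peptide in HPB-ALL. These values overlapped and BCL11B was not called (difference 0.11 ± 0.07, SE, adjusted p = 0.199). NFATC2, a calcium-activated factor, averaged 3.94 ± 0.43 in DND41 and 8.47 ± 0.04 in HPB-ALL, and its difference of -4.53 was the largest towards HPB-ALL in the list. ID1, an inhibitor of E proteins, was lower in DND41 by 2.73 and TOX2 by 1.69.

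Notch receptors are cut after ligand binding, and the freed domain joins RBPJ and a MAML coactivator on DNA. NOTCH1 had 9.66 and 9.56 with NBD and 10.18 and 10.15 with the control peptide in DND41, against 9.36 and 9.38 with NBD and 9.49 and 9.70 with the control peptide in HPB-ALL. The NOTCH1 values overlapped, with a difference of 0.41 ± 0.08 (SE, adjusted p = 0.00229), and the mean of all its probe sets was not called (0.15, adjusted p = 0.19). NOTCH3 was higher in DND41 by 0.57, but its other probe set was not called (0.13) and the call was lost with no peptide term (adjusted p = 0.103). NOTCH2 was lower by 0.49. Of 24 genes of the receptors, ligands and machinery tested, 10 were called higher and 5 lower (62.5%, near the 63.4% of all genes), and the 4 at 2-fold or more (16.7%, against 13.0%) were higher. They were MFNG, a fringe glycosyltransferase that modifies the receptors, MAML2, DLL1 and MAML3. MFNG averaged 7.52 ± 0.11 in DND41 and 5.07 ± 0.35 in HPB-ALL, MAML2 8.74 ± 0.06 in DND41 and 6.38 ± 0.15 in HPB-ALL, and the ligand DLL1 5.90 ± 0.13 in DND41 and 4.36 ± 0.17, below the floor, in HPB-ALL (SD, n = 4 each). Another probe set of MFNG gave a difference of only 0.33.

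Of 21 Notch target genes tested, 10 were called higher and 6 lower in DND41 (76.2%, against 63.4% of all genes), with 6 and 3 at 2-fold or more (42.9%, against 13.0%). HES1, a repressor and the target for which the study is named, had 10.25 and 10.10 with NBD and 11.20 and 11.21 with the control peptide in DND41, against 6.75 and 7.09 with NBD and 7.70 and 7.6 with the control peptide in HPB-ALL. Each DND41 array was above each HPB-ALL array, by 3.40 ± 0.09 (SE, adjusted p = 1.37e-08) on average or 10.6-fold, a second probe set gave 3.28, and CEM averaged 7.34. HES4, a relative of HES1, was opposite, with 5.14 and 4.49 with NBD and 5.02 and 4.89 with the control peptide in DND41, against 9.80 and 9.56 with NBD and 10.13 and 10.03 with the control peptide in HPB-ALL. DND41 was near the floor for HES4, and the difference was -4.99 ± 0.14 (SE, adjusted p = 1.36e-08). LZTFL1 was higher in DND41 by 2.21 and the pseudokinase TRIB2 by 1.79. RHOU was lower by 1.34 and HEY1, a further repressor of this family, by 1.1. DTX1, a ubiquitin ligase of the pathway that the naming rule did not pick, had 8.98 and 8.90 with NBD and 9.88 and 9.85 with the control peptide in DND41, against 7.85 and 7.87 with NBD and 8.34 and 8.45 with the control peptide in HPB-ALL, a difference of 1.28.

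Because HES1 and HES4 ran opposite ways, the 250 bases before their transcription starts are shown, from RefSeq on build GRCh38.p14, read 5′ to 3′ on the strand of each gene. The capitals mark TGGGAA, the core of the sequence that RBPJ binds, searched on both strands (TTCCCA on the other). The HES1 window is chr3:194135898-194136147 on the plus strand and the HES4 window chr1:1000098-1000347 on the minus strand.
HES1: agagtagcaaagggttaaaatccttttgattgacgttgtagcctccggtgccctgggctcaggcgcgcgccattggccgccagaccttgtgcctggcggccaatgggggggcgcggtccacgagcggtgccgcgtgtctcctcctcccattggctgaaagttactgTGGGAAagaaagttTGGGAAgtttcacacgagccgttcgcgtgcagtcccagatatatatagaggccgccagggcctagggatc
HES4: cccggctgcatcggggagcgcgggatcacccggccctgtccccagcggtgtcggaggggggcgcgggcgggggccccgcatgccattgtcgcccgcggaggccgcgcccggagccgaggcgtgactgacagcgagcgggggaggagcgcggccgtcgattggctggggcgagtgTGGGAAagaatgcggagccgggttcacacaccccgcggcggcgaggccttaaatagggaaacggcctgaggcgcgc
HES1 had 2 matches, whose first bases lay at -84 and -70 from the start, and HES4 had 1 at -76, all on the strand of the gene. Of 35116 promoter windows of this length, 20.8% held the motif on either strand. Only this exact string was searched, so variants of it are not marked and the counts are not counts of binding sites. A match is a string of letters in the reference and no measurement of binding in either line.

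Of 19 NF-kB and IkB kinase genes tested, 8 were called higher and 8 lower (84.2%, against 63.4% of all genes), and CYLD alone passed 2-fold (5.26%, against 13.0%). CYLD, a deubiquitinase that restrains NF-kB signalling and whose repression is in the study's title, had 9.12 and 9.05 with NBD and 9.08 and 9.05 with the control peptide in DND41, against 7.32 and 7.64 with NBD and 7.48 and 7.65 with the control peptide in HPB-ALL. It was higher on every DND41 array, by 1.55 ± 0.08 (SE, adjusted p = 4.78e-07), and of its 4 further probe sets 3 were called in that direction, at 0.89 to 1.31, and 1 was not called (-0.06). HES1 and CYLD were both higher in DND41, and whether their levels are linked was not tested. NFKB1, the p105 subunit gene, was higher in DND41 by 0.89, TNFAIP3, the feedback inhibitor A20, by 0.80 and NFKBIB by 0.68. RELB, a subunit of the alternative pathway, was lower by 0.54, NFKBIA, the IkB alpha inhibitor, by 0.32, and the kinase gene CHUK by 0.26. Of these calls, RELB was lost on the control arrays alone (adjusted p = 0.0657), and NFKBIA (0.139) and CHUK (0.0648) on the NBD arrays alone.

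The BCL2 family holds survival genes and killer genes, and both kinds were among those higher in DND41. Of 12 members tested, 7 were called higher and 2 lower, where 63.4% of all genes were called in either direction. At 2-fold or more, 3 of the 12 were called, all higher (BCL2L11, BCL2 and BCL2L2). Of all genes tested, 6.63% were higher and 6.38% lower at that size. BCL2L11 passed the filter only through DND41, the line in which it was high. BCL2, the founding survival gene of the family, had 9.96 and 9.90 with NBD and 10.19 and 10.13 with the control peptide in DND41, against 7.31 and 7.57 with NBD and 7.47 and 7.24 with the control peptide in HPB-ALL. BCL2 was higher on every DND41 array by 2.65 ± 0.09 on average (SE, adjusted p = 5.04e-08), while of 3 other probe sets 1 was called the same way (0.60) and 2 were not called. BCL2L11, which encodes the killer protein BIM, had 10.17 and 9.96 with NBD and 10.06 and 10.06 with the control peptide in DND41, against 3.30 and 3.09 with NBD and 3.50 and 3.72 with the control peptide in HPB-ALL. BIM transcript was thus below the floor on all HPB-ALL arrays, with a difference of 6.66 ± 0.10 (SE, adjusted p = 5.77e-10), and 5 of its 6 further probe sets were called in that direction, at 1.56 to 3.08. The killer genes BAD and BAX were higher in DND41 by 0.81 and 0.26, and the survival gene MCL1 was not called (difference -0.02, adjusted p = 0.692). BAX and MCL1 were named after their values were seen. The killer genes BMF and PMAIP1 were lower in DND41 by 0.86 and 0.35. Among death receptors and caspases, TNFRSF10B, a receptor for the ligand TRAIL, averaged 9.11 ± 0.10 in DND41 and 3.99 ± 0.15 in HPB-ALL (SD, n = 4 each), but another of its probe sets was called the opposite way (-0.37). CASP1, the caspase that matures interleukin 1 beta, was higher in DND41 by 3.46 and below the floor in HPB-ALL. CASP9, the caspase of the apoptosome, was lower by 0.73.

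Of 21 T-ALL tumour suppressors tested, 10 were called higher and 6 lower in DND41 (76.2%, against 63.4% of all genes), and the 3 at 2-fold or more (14.3%, near the 13.0% of all genes) were higher. PHF6, an X-linked chromatin gene often mutated in T-ALL, had 11.66 and 11.65 with NBD and 11.83 and 11.75 with the control peptide in DND41, against 9.15 and 9.33 with NBD and 9.50 and 9.36 with the control peptide in HPB-ALL. PHF6 was above the floor in both lines and higher on every DND41 array by 2.39 ± 0.06 on average (SE, adjusted p = 6.41e-09). Another of its probe sets gave 0.72. ETV6, a repressor of the ETS family, was higher by 2.20, with 4 further probe sets called in that direction, and WT1, a zinc finger factor, by 1.92. CDKN2A, the cell cycle inhibitor locus deleted in many T-ALL cases, had 9.82 and 9.73 with NBD and 10.06 and 10.09 with the control peptide in DND41, against 9.87 and 9.99 with NBD and 10.01 and 10.04 with the control peptide in HPB-ALL. Its values overlapped between the lines (difference -0.05 ± 0.06, SE, adjusted p = 0.46), and the 4 CEM arrays averaged 4.17. MTAP, the neighbour of CDKN2A, averaged 8.03 ± 0.13 in DND41, 8.24 ± 0.11 in HPB-ALL and 4.12 in CEM, and was not called, although 3 other probe sets of it were called higher in DND41, by 0.27 to 0.54.

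Cell cycle genes differed by less than 2-fold with few exceptions. Of 32 mitosis and proliferation genes tested, 5 were called higher and 17 lower in DND41 (68.8%, against 63.4% of all genes), none at 2-fold. CCNB2 was lower by 0.64, AURKA by 0.58 and PLK1 by 0.53, all of them drivers of mitotic entry, and the ribonucleotide reductase subunit RRM2 was higher by 0.36. Among G1 regulators, RBL2, the p130 pocket protein, averaged 10.32 ± 0.08 in DND41 and 9.0 ± 0.08 in HPB-ALL, and CCND3, the D-type cyclin of thymocytes, 11.66 ± 0.18 in DND41 and 10.64 ± 0.10 in HPB-ALL (SD, n = 4 each). These were the 2 genes of the 16 tested past 2-fold (12.5%, near the 13.0% of all genes), and another probe set of CCND3 gave 0.41. The CDK inhibitor CDKN2D was lower in DND41 by 0.55 and the transcription factor E2F1 by 0.45, and E2F2 was higher by 0.78.

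Cytokine receptors and JAK-STAT genes were called in both directions. Of 30 tested, 14 were called higher and 11 lower in DND41 (83.3%, against 63.4% of all genes), with 5 and 3 at 2-fold or more (26.7%, against 13.0%). SOCS2, a feedback inhibitor induced by STAT5, had 10 and 9.95 with NBD and 10.44 and 10.47 with the control peptide in DND41, against 4.11 and 4.68 with NBD and 4.39 and 4.65 with the control peptide in HPB-ALL. It was below the floor in HPB-ALL and high on each DND41 array, by 5.76 ± 0.13 (SE, adjusted p = 4.86e-09). STAT4, which signals for interleukin 12, averaged 8.51 ± 0.06 in DND41 and 4.74 ± 0.36 in HPB-ALL, and IL4R 7.71 ± 0.23 in DND41 and 5.54 ± 0.12 in HPB-ALL (SD, n = 4 each). STAT4 and IL4R were above HPB-ALL on all DND41 arrays, as was IL7R. The receptor chains IL10RA, IL15RA and IL2RB were lower in DND41 by 2.79, 1.15 and 1.12, and STAT5B by 0.74.

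Of 21 PI3K pathway genes tested, 11 were called higher and 7 lower in DND41 (85.7%, against 63.4% of all genes), and the 4 at 2-fold or more (19.0%, against 13.0%) were higher. PIK3CD, the catalytic subunit p110 delta of lymphocytes, had 10.73 and 10.82 with NBD and 10.81 and 10.83 with the control peptide in DND41, against 8.05 and 7.91 with NBD and 8.2 and 8.15 with the control peptide in HPB-ALL. It was higher by 2.72 ± 0.06 (SE, adjusted p = 2.35e-09) in DND41 with no overlap, while another of its probe sets gave 0.58. INPP4B, a lipid phosphatase that opposes the pathway, averaged 8.28 ± 0.07 in DND41 and 3.08 ± 0.09 in HPB-ALL (SD, n = 4 each) and was 3.06 in CEM, so of these 3 lines DND41 alone had it above the floor. PIK3R5, a regulatory subunit for the gamma isoform, was higher by 2.37, with 1 other probe set not called, and the inhibitor PIK3IP1 by 1.09. The lipid phosphatase INPP5D was lower by 0.70 and the catalytic subunit PIK3CG by 0.54.

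Chemokine receptors and adhesion genes were called at 2-fold or more for 8 members higher and 2 lower in DND41, of 23 tested (43.5%, against 13.0% of all genes). ITGA1, the collagen-binding integrin alpha 1, had 7.24 and 7.35 with NBD and 7.92 and 7.87 with the control peptide in DND41, against 4.52 and 4.49 with NBD and 4.17 and 4.13 with the control peptide in HPB-ALL. It was below the floor in HPB-ALL and differed by 3.27 ± 0.17 (SE, adjusted p = 7.36e-07). SELPLG, the selectin ligand PSGL-1, was higher in DND41 by 2.41, ICAM3 by 2.06 and ALCAM, the CD6 ligand, by 1.84. Another probe set of SELPLG gave only 0.31, so the size rests on the probe set. The laminin receptor ITGA6 was lower by 1.5 (-0.74 on another probe set), as was CCR7 (above). ITGAE, the epithelial homing integrin, was lower by 0.65.

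Interferon-stimulated genes were more often higher in DND41. Of 30 tested, 19 were called higher and 9 lower (93.3%, against 63.4% of all genes). At 2-fold or more, 9 of the 30 were called, all higher, where 6.63% of all genes were higher and 6.38% lower. Of the 30, 2 (TRIM22 and IFI44L) passed the filter only through DND41, the line in which they were high. The median difference of the 30 was 0.46, against -0.01 over all genes. TRIM22, an antiviral ubiquitin ligase, had 9.34 and 9.3 with NBD and 9.25 and 9.24 with the control peptide in DND41, against 3.26 and 2.98 with NBD and 3.44 and 3.10 with the control peptide in HPB-ALL. It was below the floor on all HPB-ALL arrays and differed by 6.09 ± 0.10 (SE, adjusted p = 6.02e-10). IFITM1, a membrane protein that blocks viral entry, averaged 10.77 ± 0.05 in DND41 and 7.56 ± 0.05 in HPB-ALL, and the GTPase GBP2 7.98 ± 0.14 in DND41 and 4.85 ± 0.10 in HPB-ALL (SD, n = 4 each). IFITM2 was higher by 3.09, though the IFITM genes are so alike that their probes may share transcripts. Others ran the other way: MX1 was lower in DND41 by 0.63, USP18 by 0.61 and IFIT1 by 0.54, the last a call lost on the NBD arrays alone (adjusted p = 0.106).

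Antigen presentation genes differed by less. Of 17 MHC class I pathway genes tested, 8 were called higher and 5 lower in DND41 (76.5%, against 63.4% of all genes). HLA-C was higher by 1.02, B2M, the invariant light chain, by 0.60 and HLA-E by 0.43. ERAP2, a peptidase that trims peptides in the endoplasmic reticulum, averaged 6.65 ± 0.30 in DND41 and 8.74 ± 0.06 in HPB-ALL (SD, n = 4 each), and the peptide pump gene TAP1 was lower in DND41 by 0.89. ERAP1 was lower by 0.17, but both of its other probe sets were called higher, so no direction can be given for it. MHC class II genes were mostly below the floor, and 5 of 12 passed the filter. HLA-DMA, a class II peptide exchange factor, averaged 4.14 ± 0.19 in DND41 and 5.50 ± 0.32 in HPB-ALL, and CD74, the invariant chain, lay at the floor with a difference of -0.26 (adjusted p = 0.048) whose call was lost when 1 of 6 of the 8 arrays was left out (adjusted p up to 0.128).

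Genes of other blood lineages were looked for in the same way. Of 14 myeloid markers measured, 12 were below the floor on all 8 arrays, and the mean level of the 14 per array was 4.49 to 4.56 in DND41 and 4.41 to 4.52 in HPB-ALL. The 2 tested, CEBPB and ITGAM, were not called, but another probe set of ITGAM was called lower in DND41 (-2.29). Of 13 fibroblast and epithelial markers, 7 were below the floor on all arrays. B cell markers gave per-array means of 5.60 to 5.85 in DND41 and 4.90 to 5.03 in HPB-ALL over 13 genes, of which MS4A1, BLNK, VPREB1 and BANK1 were below the floor on all arrays of both lines. EBF1, a factor that starts the B cell programme, had 9.28 and 9.14 with NBD and 9.13 and 9.21 with the control peptide in DND41, against 3.40 and 3.48 with NBD and 3.44 and 3.22 with the control peptide in HPB-ALL. CD79A, a signalling chain of the B cell receptor, had 10.22 and 10.12 with NBD and 11.45 and 11.46 with the control peptide in DND41, against 5.68 and 5.96 with NBD and 5.89 and 5.86 with the control peptide in HPB-ALL. Both were high on every DND41 array, by 5.81 ± 0.06 for EBF1 (SE, adjusted p = 9.48e-11) and 4.96 ± 0.23 for CD79A (SE, adjusted p = 2.79e-07). BLK, a SRC-family kinase of B cells and some T cells, was higher in DND41 by 2.73, and IGLL1, part of the surrogate light chain, was lower by 2.16. CD72 was lower by 0.36, and CD79B (0.13) and CD22 (0.0) were not called. Of the 7 B cell markers tested, 3 were called higher and 2 lower (71.4%, against 63.4% of all genes). Of these 7, 3 passed the filter through 1 line only. Of 19 cytotoxic and innate-like T cell genes, 10 were below the floor in both lines, and 8 were tested. NKG7 and GZMA, both of cytotoxic granules, were higher in DND41 by 2.16 and 2.01, and PRF1, the granule pore protein perforin, was lower by 0.65. The other 5 were not called, so 37.5% of those tested were called, against 63.4% of all genes.

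**Figure D4:**
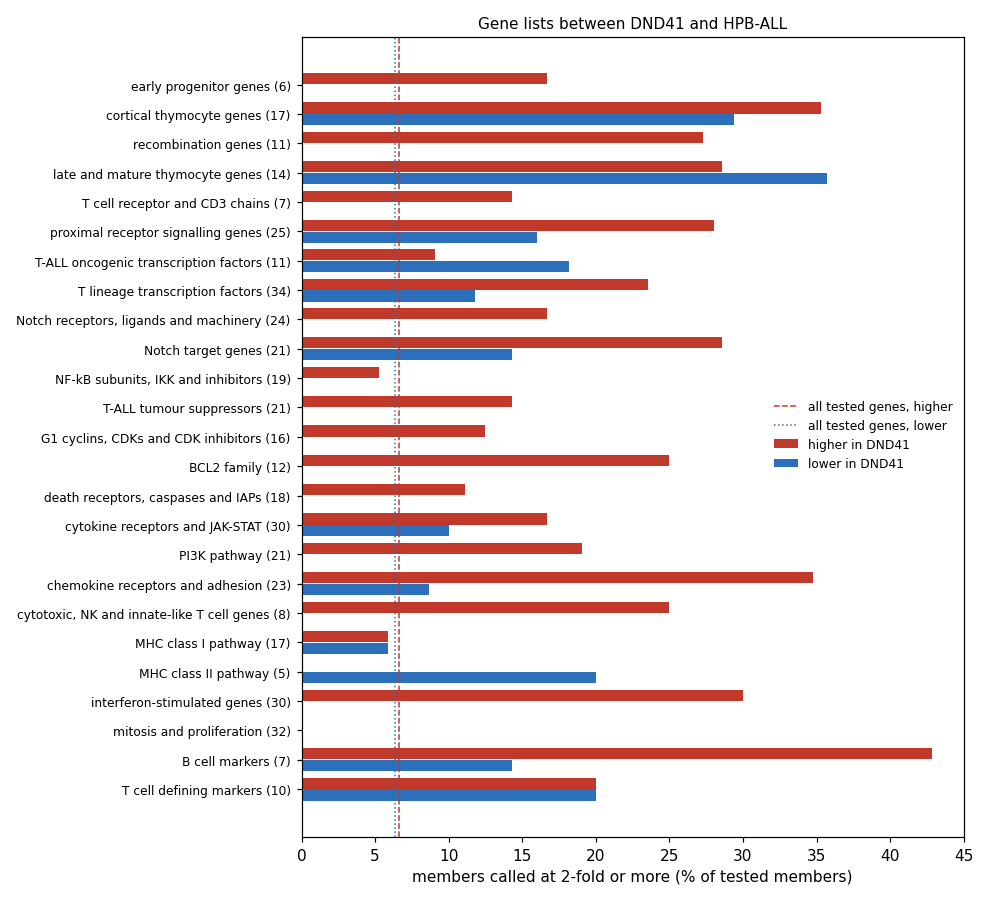
Percent of tested list members called at 2-fold or more, for each list with at least 5 members tested, the number of them in brackets. Red bars are members higher in DND41, blue bars members lower in DND41, and the dashed and dotted lines mark the 6.63% and 6.38% of all genes tested. The cortical and late lists carry both colours and mitosis genes neither. Red alone is common, in the interferon and BCL2 lists and in others such as recombination, Notch machinery, tumour suppressor and PI3K genes.

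Differences were also gathered by chromosome, as a description. On chromosome 15 the median difference of the 389 genes tested was -0.37, with 63.2% called lower and 8.48% called higher in DND41. MEIS2, RASGRP1, BUB1B, CCNB2 and ADAM10, all named above or in the lists, lie there and were lower in DND41, and B2M, which lies there too, was higher. Chromosomes 1, 3, 11, 16, 19 and 21 had medians of 0.10 to 0.13 towards DND41. HES1, FOXP1, ARPP21, LZTFL1 and TRAT1 on chromosome 3 and CYLD and RBL2 on chromosome 16 were among their genes higher in DND41. Chromosome 18, which carries BCL2 and DSG2, had a median of -0.15. Copy number was not measured, and its part in these values was not tested.

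**Figure D5:**
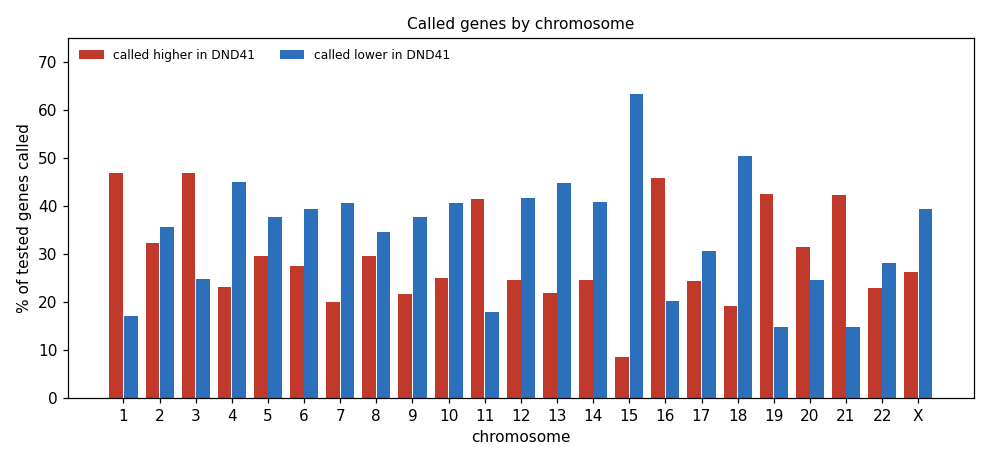
Percent of tested genes on each chromosome called higher (red) or lower (blue) in DND41 at an adjusted p under 0.05, with the Y chromosome left out. Chromosome 15 has the tallest bar for lower genes, 63.2%, and the shortest for higher genes, 8.48%.

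Of the 1615 genes called at 2-fold or more over both peptides, 1525 were at least 2-fold with NBD and 1519 with the control peptide, and since the average chose them, this is a description. Among 196 named genes tested, 18 lost their call on the NBD arrays alone, and on the control arrays alone 7 lost it and 3 that were not called changed sign. The peptide effect differed between the lines for 100 of 12405 genes (0.806%), 58 higher and 42 lower in DND41, and 49 of the 1615 were among them. That count was 1 to 14 higher and 1 to 10 lower when 1 array was left out. RAG1 was among these, with a gap between the lines of 4.15 with NBD and 2.60 with the control peptide, and MYB showed gaps of 2.08 with NBD and 1.13 with the control peptide.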

How the data were processed

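Transcripts of T-ALL lines were measured on Affymetrix arrays. The deposited values are linear intensities, 1 per probe set and array, and RMA is named in the submitters' processing notes with no version. The scanner files were not used here. Of 54675 probe sets, 41097 carry 1 gene symbol, 1801 several and 11777 none, and 41043 symbols matched the GRCh38.p14 gene table, used for chromosome and gene order. Y-linked genes were left out. Each gene was read from the probe set with the highest mean over all 20 arrays. Of 206 other probe sets of the named genes called, 169 were called the same way, 5 the opposite way and 32 were not called. The size of a difference can rest on the probe set read. The log2 values were fitted by lmFit and eBayes of limma 3.58.1 (R 4.3.3) with additive terms for line and peptide on 8 arrays, leaving 5 residual degrees of freedom, and a model with their interaction gave the difference of peptide effects. Adjusted p-values are Benjamini-Hochberg over the 12405 genes tested, with 0.05 as the threshold. The number of arrays limits the precision. The methods were tested on simulated data.

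Named genes are the 12 largest called differences in each direction, up to 4 called members of each gene list in each direction (the 2 largest where none was called), and a list of genes always named. Others are said to be outside that rule. The members and lists were chosen with earlier results of these data known. Alternatives changed the samples, covariates, normalization, filter, prior, threshold, probe set and log scale.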

Additional observations from a re-analysis of the deposited data

Results flagged for a closer look

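Among 412 sets of 4 arrays of one line, 10 (2.43%) had 1 array far from the other 3 by Dixon's criterion, where chance gives about 1 in 20. In DND41, KLF2 was at 6.68 on control array 1, against 6.25 to 6.32 on the others, and NFKB1 at 8.30 on NBD array 2, against 8.52 to 8.56. TAP2 was at 8.90 on DND41 control array 2, against 8.83 on the others, and TLX2 at 4.93 on the same array, against 5.18 to 5.22. In HPB-ALL, MFNG was at 4.56 on control array 1, against 5.21 to 5.31, and ITCH at 8.84 on that array, against 9.05 to 9.07. ERAP1 was at 10.44 on HPB-ALL control array 2, against 10.54 to 10.55, and OGFRL1 at 10.19 on it, against 10.39 to 10.42. GIMAP6 was at 2.90 on HPB-ALL NBD array 1, below the floor like the others (3.52 to 3.64), and CENPF at 10.89 on NBD array 2, against 11.01 to 11.02.

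The effect of NBD over the control peptide differed between DND41 and HPB-ALL for 10 named genes in limma's interaction term, as the effect in DND41 minus that in HPB-ALL. It was positive for RAG1 (1.55, adjusted p = 0.0017), ARPP21 (1.20, adjusted p = 0.0327), MYB (0.95, adjusted p = 0.0133) and DNTT (0.85, adjusted p = 0.046), genes of immature thymocytes. It was also positive for RASGRP1 (0.83, adjusted p = 0.0167) and PIK3IP1 (0.80, adjusted p = 0.021). It was negative for CD79A (-1.22, adjusted p = 0.0232), ITGA1 (-0.96, adjusted p = 0.0133), MYC (-0.80, adjusted p = 0.0451) and LAT (-0.59, adjusted p = 0.0428). These calls belong to a count that changes with the processing, given below.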

How the results depend on the processing

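The counts of genes called between DND41 and HPB-ALL stayed within 1.5 times their values under all 25 alternatives. Without 1 array they were 3700 to 3984 higher and 3611 to 3835 lower, and 816 to 829 and 777 to 808 at 2-fold or more. Of 112 named genes called at 2-fold or more, 101 kept the call under every alternative and all 112 under every one but the test against a 2-fold difference. The count of differing peptide effects was unstable. It was 5 higher and 10 lower with no filter, 37 higher with quantile normalization, 245 and 261 with a trended robust prior, and 1 to 14 and 1 to 10 without 1 array, and the cause was not tested. Across genes, the differences between replicates 2 and 1 correlated at -0.118 to 0.159 between groups, highest between DND41 control and DND41 NBD. The labels do not say what the replicate numbers stand for, and these correlations cannot settle whether they are a pairing. With the replicate number as a block, 3873 genes were higher and 3816 lower, the peptide effect counts were 5 and 12, and no named gene's line call changed. The sign turned with control arrays only for BCL11B (-0.037), CDKN2A (0.047) and CEBPB (0.184). It turned with the mean of all probe sets for CDKN2A (0.054), CENPF (-0.10), ERAP1 (0.28), MTAP (0.105) and XRCC5 (0.003). Calls of CD72, CD74, KRT8, LYL1 and TLX2 were lost without 1 or more single arrays. Other calls of genes described were lost on NBD arrays alone (MYC, NFKBIA, CD3E, CHUK, IFIT1, POLM, TARP), on control arrays alone (RELB, POLL, PRF1), with the mean of probe sets (NOTCH1, TARP), with no peptide term (NOTCH3, NFKBIA) or with all 20 arrays (CD3E, POLM, TARP). Signal near the floor limits what can be said of low genes, and 1 line of each kind limits the rest.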

Other observations

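Genes that differed by 2-fold or more were looked at in chromosome order, a step chosen after the data were seen. Among 12379 placed genes, 42 runs of at least 3 adjacent tested genes were called at 2-fold or more in 1 direction, 29 higher and 13 lower in DND41. The longest held CHD9, RBL2, AKTIP, RPGRIP1L, FTO and IRX3 on chromosome 16, higher in DND41 by 1.26 to 2.41. Runs of 5 were the GIMAP genes of chromosome 7 (GTPases of lymphocyte survival; LOC728743, GIMAP7, GIMAP6, GIMAP2 and GIMAP1, higher by 1.13 to 7.10) and the interferon-induced GTPases GBP3, GBP1, GBP2, GBP4 and GBP5 on chromosome 1 (higher by 1.73 to 5.20). CD1D, CD1A and CD1B formed a run on chromosome 1 (1.44 to 2.98) and IFITM2, IFITM1 and IFITM3 one on chromosome 11 (2.70 to 3.21). The 1 run of 4 that was lower in DND41 held PON1, PON2, DYNC1I1 and SLC25A13 on chromosome 7, by 1.33 to 6.19. Members of a gene family can share probe sequence, which was not tested.

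The neighbours of MSH6 on chromosome 2 were also read, again after its value was seen. FBXO11, the next tested gene and a ubiquitin ligase subunit, averaged 9.89 in DND41 and 4.01 in HPB-ALL, a difference of 5.88 ± 0.11 (SE). The genes on either side of this pair differed far less, TTC7A by 0.15 and FOXN2 by 0.90. Further out, PIGF (1.62), MCFD2 (1.07), ERLEC1 (1.05), SOCS5 (0.9) and CRIPT (0.86) were also higher in DND41, and STON1 was lower (-1.37). MSH6 and FBXO11 were thus adjacent tested genes, both below the floor in HPB-ALL. The neighbours of BCL2L11, TFDP1 and EGLN1 were read in the same way. The tested genes directly beside these differed by -0.67 (SLC9D1) to 0.38 (MIR4435-2HG). Further from EGLN1, SIPA1L2 differed by 2.73 and SLC35F3 by 3.52. DNA copy number was not measured.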
